A study of Mus musculus with 9 samples.

Results

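The DEAD and DEAH box helicase genes are the 53 protein-coding mouse genes, of 21900 in the RefSeq annotation of GRCm38 (mm10), whose symbol is Ddx or Dhx followed by a number and at most 1 letter. Of these, 37 have a Ddx symbol and 16 a Dhx symbol. They are called DEAD box and DEAH box genes here by symbol, and the motif of each protein was not checked. The rule used the symbol alone, though the family was picked with earlier results of these data known. Peaks were assigned to a gene when they lay within 500 bp of its body. The study immunoprecipitated m6A-carrying fragments of mRNA from mouse embryonic stem cells (mESCs). Its 9 libraries, 6 immunoprecipitations and 3 inputs, came from wild-type cells and from cells in which Mettl3 or Zc3h13 was knocked out. The values here come from the peak lists of the 2 wild-type (WT) immunoprecipitations, replicates 1 and 2, and the other 7 libraries, knockouts and inputs included, were not analysed here. The WT cells carry the background written as Rosa26:CRE, Bir ligase in the labels, which all genotypes share, and were grown with LIF conditioned medium. The labels name 2 replicates without saying whether they came from separate cultures.

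These helicases are proteins that use ATP to unwind RNA duplexes or to strip proteins from RNA, and the names come from the amino acids Asp-Glu-Ala-Asp or Asp-Glu-Ala-His in a conserved motif. DEAD box members mostly separate short duplexes locally, whereas DEAH box members tend to move along a strand. Between them they serve nearly every step in the life of an RNA, from transcription and splicing to export, ribosome assembly, translation and decay. m6A, the methylated adenosine placed on mRNA by the Mettl3 complex, is known to lie often near the stop codon and in long exons, with GGAC as a frequent core sequence, and the antibody also binds m6Am, the methylated adenosine beside the mRNA cap.

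A peak has a fold enrichment over input, which is a ratio, and a −log10 q, both from the authors' MACS2 call in each replicate by itself. Replicate 1 held 22531 peaks and replicate 2 held 5040. The peak names inside the list of replicate 1 use a sample name that does not say wild type, so counts are given for each replicate as well as for both. No read counts come with the lists, so depth is unknown, and fold enrichment is compared between genes only within a list. Of 6 stem cell markers, 5 had a peak in replicate 1 (Sox2, Nanog, Klf4, Esrrb and Zfp42), while Pou5f1 had none, and none of the 6 had a peak in replicate 2. A peak list gives no expression level, and 41.3% of all protein-coding genes had a peak in replicate 1, so the list cannot check the cell type, and a gene without a peak may simply not be expressed.

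Helicase genes had peaks more often than all genes in replicate 1 and less often in replicate 2, the latter by a margin within the counting interval. In replicate 1, 31 of 53 had at least 1 peak (58.5%, 95% exact binomial interval 44.1% to 71.9%, counting error only), beside 41.3% of all protein-coding genes. In replicate 2, 6 of 53 did (11.3%, interval 4.27% to 23.0%), beside 16.9% of all protein-coding genes. All 6 were also in the list of replicate 1, so the share with a peak in both was again 11.3%, beside 16.1%. Among genes with a peak in replicate 1, 6 of 31 helicase genes (19.4%) and 39.1% of all protein-coding genes were also in the list of replicate 2. The place of the helicase genes relative to other genes depended on the strength asked of a peak. At a fold enrichment of at least 4, 12 of 53 helicase genes (22.6%) had a peak in replicate 1, beside 30.6% of all protein-coding genes, so the order of the shares turned. When the list of replicate 1 was shortened to the 5040 peaks with the best −log10 q, 12 of 53 (22.6%) did, beside 17.3%, and 7 of these 12 genes were also among the 12 at a fold enrichment of at least 4. No test of the list was made, and these shares are descriptions.

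By role, peaks in replicate 1 were found at 10 of 16 genes of ribosome biogenesis, 4 of 10 of splicing, 2 of 3 of export, 3 of 6 of translation and mRNA fate, and 3 of 5 of transcription, microRNA processing and snRNP assembly. Both mitochondrial helicases, Ddx28 and Dhx30, had a peak in replicate 1, as did the 4 less characterised genes, Ddx59, Dhx32, Dhx40 and Dhx57. Of the 3 innate RNA sensors only Ddx58 had a peak, and of the 3 germline genes only Ddx43. Over all protein-coding genes the share in replicate 1 was 41.3%. With few genes per role, these counts are descriptions and not differences between roles. The 6 genes in both lists were Ddx11, Ddx39a, Dhx33, Dhx34, Dhx37 and Dhx38. By symbol, they were 4 of the 16 Dhx genes (25%) and 2 of the 37 Ddx genes (5.41%), beside 16.1% of all protein-coding genes. In replicate 1 the families by symbol were close, with 10 of 16 (62.5%) and 21 of 37 (56.8%), beside 41.3%. The difference between the families was not tested.

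**Figure D1:**
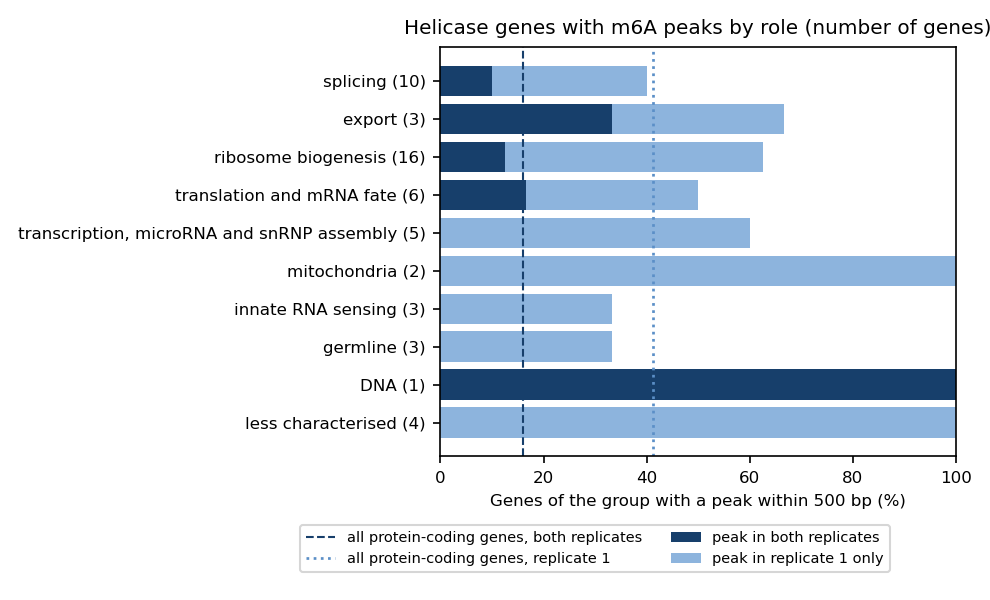
For each role, the percentage of helicase genes that had a peak within 500 bp of the gene body (gene numbers in brackets). The dark part of a bar counts genes found in both WT replicates, and the light part genes found in replicate 1 alone. Lines mark all protein-coding genes, at 16.1% for both replicates and 41.3% for replicate 1. The splicing genes (4 of 10, 40%) sit close to the replicate 1 line. The innate sensing and germline genes sit below it, with only 1 of 3 genes each.

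The 22 genes with no peak in either list spread over several roles. They are Ddx23, Ddx41, Ddx46, Dhx15, Dhx16 and Dhx35 of the spliceosome, Ddx10, Ddx18, Ddx21, Ddx47, Ddx55 and Ddx56 of ribosome biogenesis, and Ddx19a, which acts in mRNA export at the nuclear pore. Ddx3x, which aids translation of structured mRNAs, its Y-linked copy Ddx3y, and Dhx29, which helps ribosomes scan structured leaders, also had none. The rest were Ddx1 and Dhx9, the sensors Ddx60 and Dhx58, and the germline genes Ddx4 (Vasa) and Ddx25. The median gene body was 22.4 kb (range 6.25 to 149.7 kb) for the 22 genes without a peak, 28.6 kb for the 25 with a peak in replicate 1 only and 20.4 kb for the 6 in both lists. How reads shared by close copies, such as Ddx3x and Ddx3y or the adjacent Ddx19a and Ddx19b, were placed is not stated in the labels or the study's methods.

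Where helicase genes had peaks in replicate 1, their fold enrichment was mostly below that of other genes. The highest peak of a helicase gene in replicate 1 had a fold enrichment between 1.54 and 14.9, with a median of 3.05, beside a median of 6.45 over the 9038 protein-coding genes with a peak. Of the 31 genes, 23 lay below that median, and 19 (61.3%) stayed under 4, beside 25.7% of all protein-coding genes. The −log10 q told them apart less, with a median of 52.3 for the helicase genes and 52.3 for all genes, and 16 of 31 below the latter. In replicate 2 the highest peaks of the 6 genes had a median of 5.40, beside 6.71 over all genes of that list, and 5 of 6 lay below it (83.3%, interval 35.9% to 99.6%). With 6 genes this interval includes 50%, and at a −log10 q of at least 5 the median of the helicase genes was 6.06. Without the peaks near annotated starts the median in replicate 1 was 3.00. Some pairs of values recurred exactly in the list of replicate 1. Ajap1, Bhlhe22 and Bin1, with 1 peak each, shared a fold enrichment of 7.45 and the same −log10 q, as did 1 peak of Dhx32. Whether thin coverage of a gene or of its input set such values was not tested. Whether the lower median of the helicase genes reflects weaker methylation was not tested either.

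**Figure D2:**
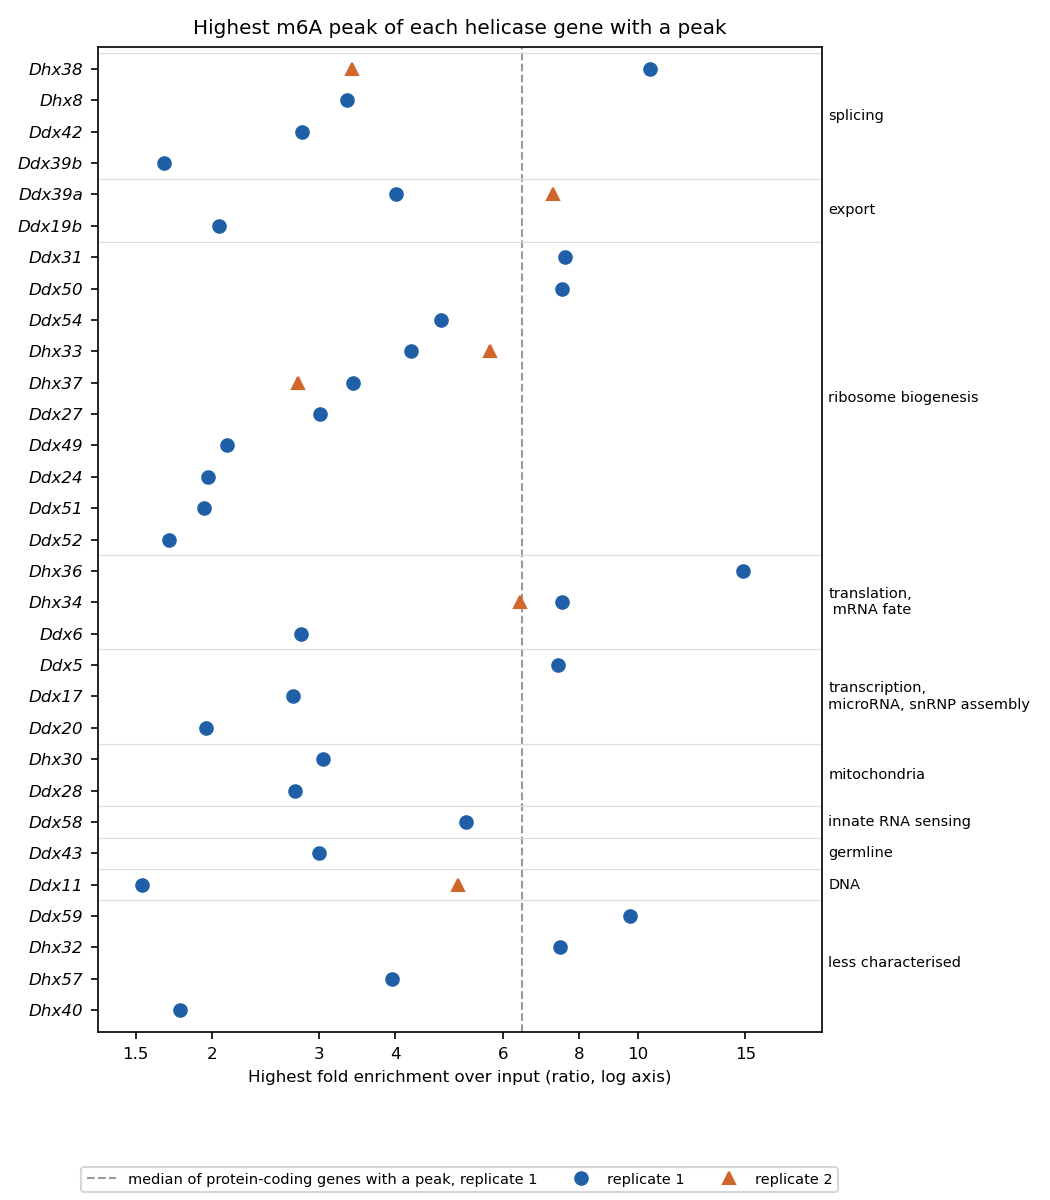
Highest fold enrichment over input (ratio, log axis) of each of the 31 helicase genes with a peak, ordered by role. Circles are replicate 1, triangles replicate 2, and the dashed line is the median of the highest peaks of all protein-coding genes in replicate 1 (6.45); 23 of the 31 circles lie left of it, with Dhx36, Dhx38 and Ddx59 farthest right.

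**Figure D3:**
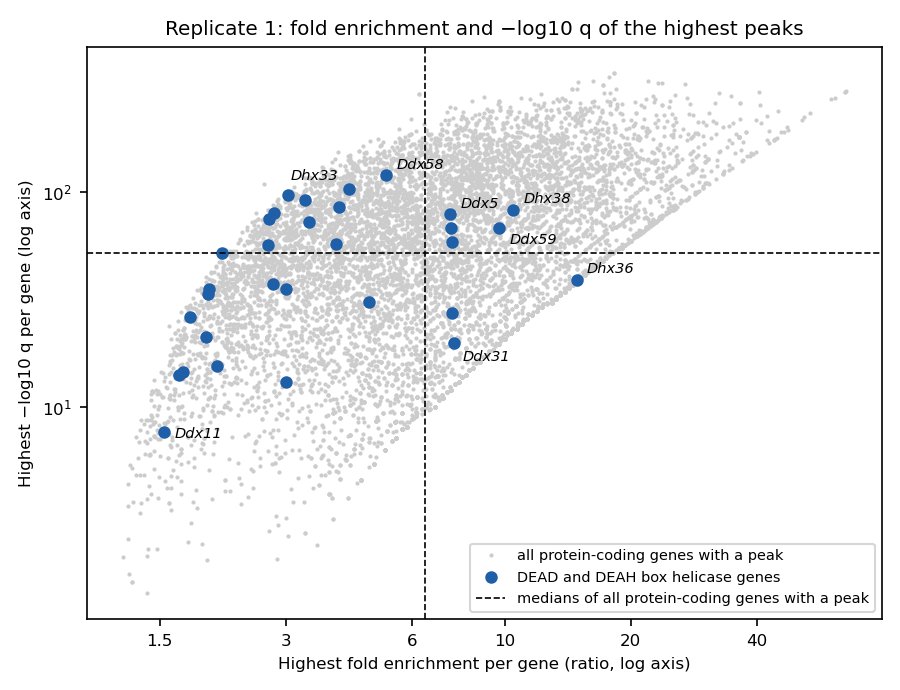
Highest fold enrichment against highest −log10 q of each protein-coding gene with a peak in replicate 1 (both axes logarithmic; the 2 values of a gene may come from different peaks). Blue points are the 31 helicase genes and dashed lines the medians over all genes; most blue points lie left of the vertical line, and 16 of 31 lie below the horizontal line.

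The order of the 6 genes of both lists differed by measure, with Dhx34 first by the lower of the 2 fold enrichments and Ddx39a first by the lower −log10 q. Dhx34, an RNA helicase that acts in nonsense-mediated mRNA decay, lies on the minus strand at chr7:16197220-16222078 and had 4 peaks in replicate 1 and 3 in replicate 2. The peak toward the start of the gene, with its summit 3175 bp inside, reached a fold enrichment of 6.52 (replicate 1) and 6.39 (replicate 2). The peak 6699 bp before the gene end had 4.74 and 6.16, and that 1654 bp before the gene end had 3.53 and 6.40. Its highest peak of replicate 1, with 7.49 at 15849 bp from the start, had no counterpart in replicate 2. Dhx34 thus carried peaks in both replicates toward the start as well as toward the end of the gene body.

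Dhx33, a nucleolar helicase of ribosomal RNA synthesis, lies on the minus strand at chr11:70984091-71004533, with 5 peaks in replicate 1 and 2 in replicate 2. The 2 peaks found in both replicates had summits 473 bp and 3186 bp before the gene end in replicate 1. The former was enriched 3.85-fold in replicate 1 and 4.39-fold in replicate 2, and the latter 3.76 and 5.72. These 2 peaks also had the highest −log10 q of the gene, at 102.4 and 103.7 in replicate 1, whereas its 3 peaks farther from the end, with −log10 q between 24.8 and 30.7, were in replicate 1 only. In Dhx33, then, the peaks found in both replicates lay only toward the end of the gene. Dhx37, which acts in the assembly of the small ribosomal subunit, lies on the minus strand at chr5:125413747-125434139. Its peak 1255 bp before the gene end had 2.93 in replicate 1 and 2.77 in replicate 2. Another peak in the middle of the gene had 3.41 in replicate 1 and no counterpart.

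The remaining 3 genes of both lists had no entry in the table that gives strand here, so their positions are given by coordinate. Ddx39a, a close relative of the mRNA export factor Ddx39b, lies at chr8:83715177-83726904. Of its 3 peaks in replicate 1, the one from 83725166 to 83725588 was also in replicate 2, with 4.01 and 7.26, the highest fold enrichment of any helicase peak in replicate 2. All 3 lie inside the body of Adgre5 too, which overlaps that of Ddx39a, so they may belong to either gene. Dhx38, the helicase of the second step of splicing, lies at chr8:109547999-109565861 and had 6 peaks in replicate 1, the most of any helicase gene. The peak at its lower coordinate end, from 109548323 to 109548666, had 2.02 in replicate 1 and 3.39 in replicate 2. Its highest peak, at the other end of the body, had 10.5 in replicate 1, touches the body of Txnl4b and was absent from replicate 2. Ddx11, a DNA helicase of sister chromatid cohesion, lies at chr17:66123513-66152174. Its only peak, near the higher coordinate end, had 1.54 in replicate 1, the lowest of all highest peaks, and 5.07 in replicate 2. Which genes were in both lists depended on the setting. At a −log10 q of at least 5 they were Ddx11, Ddx39a, Dhx33 and Dhx34 (7.55% of 53, beside 12.8% of all protein-coding genes). With replicate 1 shortened to 5040 peaks they were Ddx39a, Dhx33, Dhx37 and Dhx38 (7.55%, beside 10.7%), without Dhx34. At a fold enrichment of at least 4 they were Ddx39a, Dhx33 and Dhx34 (5.66%, beside 11.6%). Ddx39a and Dhx33 were in both lists under each of these settings.

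All 9 helicase peaks of replicate 2 overlapped a peak of replicate 1 (interval 66.4% to 100%), beside 92.1% of all peaks of replicate 2, and their summits lay 1 to 79 bp apart, with a median of 11 bp. The share for the helicase peaks fell to 44.4% with replicate 1 shortened to 5040 peaks and to 42.9% at a fold enrichment of at least 4 in both lists. The share over all peaks of replicate 2 at these settings is not given here, so neither value can be set beside the 92.1%. In the other direction 9 of 56 helicase peaks of replicate 1 overlapped one of replicate 2 (16.1%), beside 19.1% of all its peaks. Fold enrichment did not keep its size between the lists. It was higher in replicate 2 at 7 of the 9 sites, by a median factor of 1.52 and at most 3.31, at Ddx11, while over all 4640 such sites it was higher in replicate 2 at 50.7%. In replicate 1 the 9 shared peaks had a median fold enrichment of 3.76 and a median width of 628 bp, and the 47 others 3.01 and 346 bp. All peaks of replicate 1 together differed the same way, with 5.72 and 797 bp for shared peaks and 5.32 and 394 bp for the others. A high −log10 q in replicate 1 did not ensure a peak in replicate 2. Of the 14 helicase peaks among the 5040 of highest −log10 q in replicate 1, 4 overlapped a peak of replicate 2 (28.6%, interval 8.39% to 58.1%), beside 49.1% of all 5040. In only 2 of the 6 genes, Ddx11 and Ddx39a, was the peak of highest fold enrichment in replicate 1 the one found in replicate 2. Ddx11 had only 1 peak in each list, so no other peak could have been its highest. The matching share of all protein-coding genes is not given here.

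**Figure D4:**
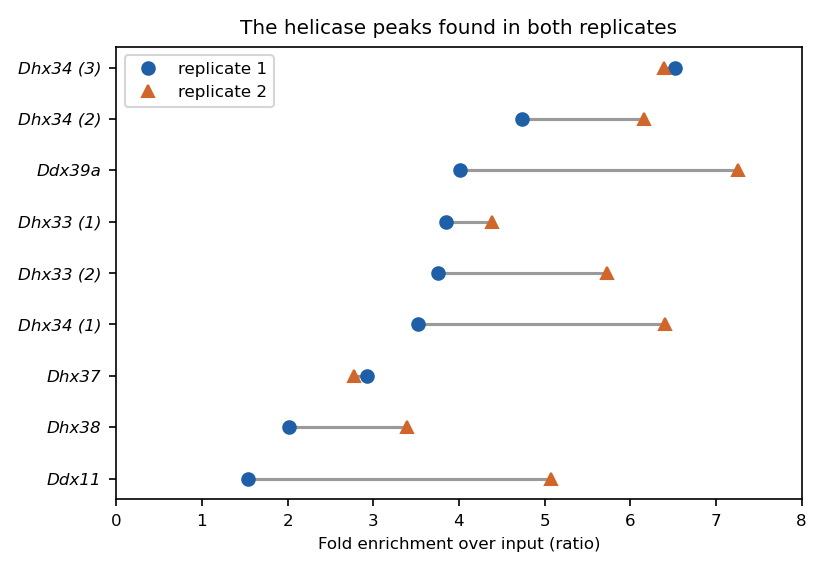
Fold enrichment over input (ratio) of the 9 helicase peaks found in both WT replicates. Circles are replicate 1, triangles replicate 2, and each line joins the overlapping peaks; peaks of a gene with several are numbered from its lowest coordinate. At 7 of the 9 sites the triangle lies to the right, with the widest gap at Ddx11.

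Peaks confined to replicate 1 included those with the highest fold enrichment of all helicase genes. Dhx36, a helicase that resolves G-quadruplexes, had the highest value, 14.9 with a −log10 q of 39.1, in a peak at chr3:62507217-62507609. The gene lies on the minus strand and the peak begins 183 bp outside its body on the start side, so it entered only through the 500 bp allowance. By −log10 q this peak ranked 8780 in replicate 1, and the same 2 values were the highest of 4933411K16Rik. Ddx59, a gene linked to cilia and orofaciodigital syndrome, had 5 peaks, and its highest, with 9.71, had its summit 468 bp before the gene end. That peak had a −log10 q of 19.7, by which it ranked 14454, and Creg2 had the same 2 values. The other 4 peaks of Ddx59 had a fold enrichment between 2.23 and 4.62. Ddx31, a nucleolar helicase, had a peak of 7.59 deep inside its gene, 40660 bp from the start, with a −log10 q of 19.9. Ddx58, which encodes the viral RNA sensor RIG-I, combined 5.22 with the highest −log10 q of all helicase peaks, 119.5, and its summit lay 2019 bp before the gene end. Neither value brought a peak in replicate 2. Dhx57 had 3 peaks with at most 3.96, and Dhx30, which serves mitochondrial RNA, had a peak of 3.05 with a −log10 q of 97.3. Ddx6, a helicase of mRNA decay and P-bodies, had 3 peaks with at most 2.80.

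Lower values were the rule among the other genes of replicate 1. Dhx8, which releases the finished mRNA from the spliceosome, had a peak of 3.33 with its summit 672 bp before the gene end. Ddx42, a helicase of the U2 snRNP, had 2.82 at 1582 bp before the end. Both had a high −log10 q, 92.1 and 79.8. Ddx27, Ddx24, Ddx49, Ddx51 and Ddx52, all of ribosome biogenesis, had between 1.70 and 3.01. Ddx20 (Gemin3), a component of the SMN complex, had 1.95, Ddx39b, which acts in splicing and export, 1.67, and Ddx19b 2.05. Ddx43 of the germline group had 3.00 with a −log10 q of 13.1, and Dhx40 had 1.77. Among the 31 genes, 22 had a single peak, and 8 (25.8%) had 3 or more, beside 32.5% of all protein-coding genes of the list, namely Ddx39a, Ddx59, Ddx6, Dhx32, Dhx33, Dhx34, Dhx38 and Dhx57.

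Several peaks cannot be given to a helicase gene alone. Of the 56 helicase peaks of replicate 1, 13 lay within 500 bp of another annotated gene (23.2%), beside 22.0% over all protein-coding genes. For 7 of the 31 genes (22.6%) this held for every peak. They were Ddx17 (with Kdelr3), Ddx28 (Dus2), Ddx39a (Adgre5), Ddx49 (Homer3), Ddx5 (Cep95), Ddx54 (Rita1) and Dhx40 (the lncRNA gene Gm42085). The matching share of all protein-coding genes is not given here, and the 22.0% counts pairs of a gene and a peak. The peak at Ddx17, a coregulator of transcription and microRNA processing, had 2.72 and began 333 bp outside the gene body on its end side, with the summit inside Kdelr3. The peak at Ddx28, with 2.74, was 1746 bp wide, the widest of all helicase peaks, on a gene body of 1871 bp. That at Ddx49, with 2.12, also had its summit inside Homer3. Strand was not part of the peak lists.

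For 47 of the 53 genes strand could be read from the RefSeq table of promoter windows, and these held 43 of the 56 helicase peaks of replicate 1. Of the 39 with a summit inside the gene body, 7 lay within 1000 bp of the gene end (17.9%, interval 7.54% to 33.5%), beside 13.5% of all such summits, and 0 lay within 1000 bp of the gene start (interval up to 9.03%), beside 9.39%. The summits of Ddx5, Ddx54 and Dhx36 lay just outside the body on the start side and are not among the 39. The last 25% of the gene body held 16 of the 39 (41.0%), beside 51.3%. The 7 near the gene end were those at Ddx28, Ddx49, Ddx52, Ddx59, Dhx33, Dhx57 and Dhx8. Of these peaks, those of Ddx28, Ddx49 and Dhx57 also overlap Dus2, Homer3 and the lncRNA gene Gm52289, so they may belong to either gene. Without regard to strand, 17 of the 65 helicase summits of both lists lay within 1000 bp of either end (26.2%), beside 26.9% for all protein-coding genes. Gene bodies include introns, and exons were not part of the annotation used, so distances along the mRNA and the place of the stop codon could not be given.

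**Figure D5:**
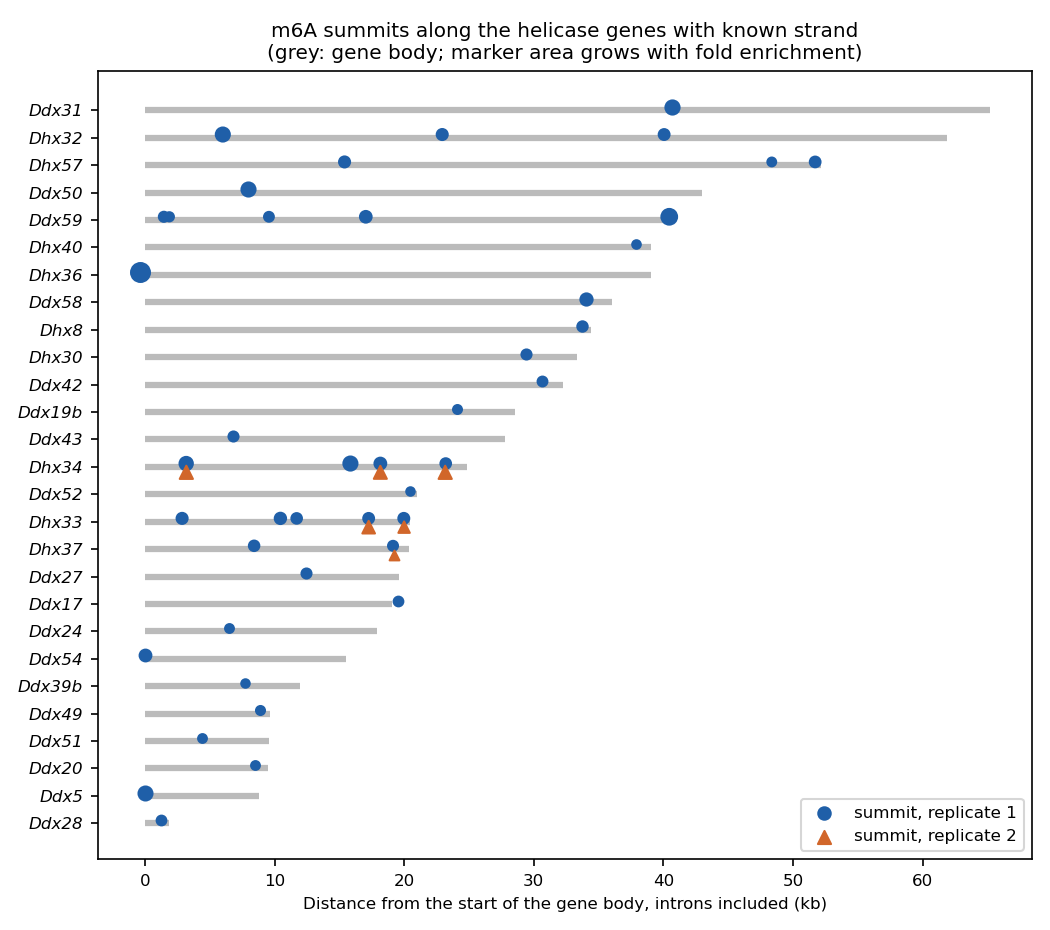
Summits of m6A peaks along the helicase genes with known strand and a peak, in kb from the start of the gene body, introns included. Grey bars are gene bodies, circles replicate 1 and triangles replicate 2, and the marker area grows with fold enrichment; the summits of Dhx36, Ddx5 and Ddx54 lie at or just before the start, and the 6 summits of replicate 2 on Dhx33, Dhx34 and Dhx37 sit under circles of replicate 1.

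A small set of peaks lay within 500 bp of annotated transcript starts. Of the 43 helicase summits, 6 lay within 500 bp of an annotated start (14.0%), beside 10.1% of all summits at protein-coding genes with a start in the table. They were those of Dhx36, Ddx50, Ddx5 and Ddx54 and 2 of the 3 peaks of Dhx32. Of these 6 summits, 3 lay within 250 bp of the start, and those of Dhx36, Ddx50 and 1 of Dhx32 lay farther off. The fold enrichment of the 6 had a median of 7.42 and ran from 3.96 to 14.9, whereas the 37 others had a median of 3.05. Over all protein-coding genes the medians were 5.96 near a start and 4.96 elsewhere. The median −log10 q was not higher near a start, at 35.0 against 35.4 for the helicase peaks and 26.3 against 32.1 for all. In Ddx50, a nucleolar relative of Ddx21, the peak of 7.50 lay 7913 bp inside the gene but 367 bp after another annotated start. In Dhx32, a DEAH box gene of less settled function, the peak of 7.45 lay 20 bp after an annotated start inside the gene, and the peak of 3.96 lay 418 bp after another. All 6 were in replicate 1 only.

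In Ddx5, Ddx54 and Dhx32 the summit fell inside the promoter window, which runs from 250 bases before to 50 bases after a start. These windows are shown because the peaks there lie across or beside an annotated start, where the transcript sequence under the peak is not the whole of it. The summit was 40 bp before the start in Ddx5 (p68, a coactivator of transcription and microRNA processing), with a fold enrichment of 7.40, and 49 bp before the start in Ddx54, a nucleolar helicase, with 4.75. The stretches of the windows that the peaks cover follow, up to base 30 of the transcript, from RefSeq on GRCm38.p6, 5′ to 3′ on the strand of the gene, with GGAC in capitals.
Ddx5, minus strand, chr11:106789156-106789435: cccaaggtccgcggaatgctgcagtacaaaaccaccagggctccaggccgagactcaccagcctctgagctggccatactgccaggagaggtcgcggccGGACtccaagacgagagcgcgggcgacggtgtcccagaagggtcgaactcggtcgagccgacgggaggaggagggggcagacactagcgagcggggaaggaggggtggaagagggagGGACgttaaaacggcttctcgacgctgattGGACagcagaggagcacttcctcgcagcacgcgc
Dhx32, minus strand, chr7:133776774-133776953: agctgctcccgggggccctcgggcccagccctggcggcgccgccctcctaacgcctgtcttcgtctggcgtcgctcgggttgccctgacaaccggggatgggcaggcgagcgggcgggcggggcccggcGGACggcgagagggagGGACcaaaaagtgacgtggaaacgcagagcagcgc
Ddx54, plus strand, chr5:120612880-120613159: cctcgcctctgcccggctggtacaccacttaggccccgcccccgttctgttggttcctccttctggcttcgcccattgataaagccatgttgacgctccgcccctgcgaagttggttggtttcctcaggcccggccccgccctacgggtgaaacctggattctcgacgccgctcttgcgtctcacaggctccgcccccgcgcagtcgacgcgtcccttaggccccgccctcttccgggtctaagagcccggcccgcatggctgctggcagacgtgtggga
The stretch of Ddx5 held GGAC 3 times on the strand of the gene and 2 times on the other, that of Dhx32 2 times and 0 times, and that of Ddx54 0 times and 1 time. Only the last 30 bases of each stretch belong to a transcript from the annotated start. Every GGAC in capitals lies before these 30 bases, so none is part of a transcript that begins at that start. The gene body of Ddx54 begins at 120613082, before the annotated start used here, 120613130. The stretch of Dhx32 lies wholly inside its gene body. Earlier bases of these stretches may thus belong to transcripts from other starts. Of all 32851 windows cut to the same 280 bases, 62.5% held GGAC on the strand of the gene and 85.6% on either strand. For the 180 bases of Dhx32 these shares were 47.7% and 72.7%. GGAC in these windows is thus frequent anywhere, and a match is a description of the sequence only. The peaks of Ddx5 and Dhx32 overlap the bodies of genes that run the opposite way, Cep95 and Fank1, so they may belong to either gene. That of Ddx54 lies 233 bp from Rita1, which also runs the opposite way. The summit of the Ddx5 peak also lies inside the body of Cep95.

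RNA helicases that do not carry a Ddx or Dhx symbol were counted for comparison. Of 23 such genes, 10 had a peak in replicate 1 (43.5%), beside 41.3% of all protein-coding genes. In both lists there were 3 (13.0%), namely Helz2, Dicer1 and Ighmbp2, beside 16.1%. Ascc3 had a peak in replicate 2 only. The translation initiation helicases Eif4a1 and Eif4a2, the exon junction helicase Eif4a3 and the spliceosomal helicase Snrnp200 had none. The highest fold enrichment in replicate 1 was 24.0 at Helz2, a nuclear receptor coactivator, and 13.5 at Dicer1, which cuts microRNA precursors. The median of the highest peaks of the 10 genes was 5.21, beside 3.05 for the Ddx and Dhx genes and 6.45 for all protein-coding genes with a peak.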

How the data were processed

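m6A-RIP-seq peak lists of the 2 wild-type immunoprecipitations of mESCs were analysed, with 30 ng of recovered RNA per library. Bowtie, SAMtools and MACS2 are listed in the submitters' processing notes without versions, beside the build mm10. With the default settings of MACS2, the authors called peaks separately for each immunoprecipitation relative to input. The deposited fold enrichment is a ratio to input, and the deposited −log10 values are those of the p-value and q-value of each peak. The deposited score, derived from the q-value, was not used. Read counts were not part of the lists, so the depth of each sample is unknown; intervals cover counting error only.

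Peak positions were written from 1 and joined to RefSeq gene bodies of GRCm38 within 500 bp, each peak going to every such gene. An overlap of 1 bp or more made peaks shared. Strand and transcript starts came from 32851 promoter windows, which matched 47 of 53 members; Ddx11, Ddx23, Ddx39a, Ddx6, Dhx38 and Dhx58 had no entry. The members, role lists and other lists were chosen with earlier results of these data known. The genes named are all in both lists, the 10 of replicate 1 only with the highest fold enrichment, those with 3 or more peaks, those sharing all peaks with another gene, and those without a peak by role; the other genes of replicate 1 were named after their values were seen. No test was made, since only 1 group was analysed and no groups were compared. Assignment and overlap were tested on simulated data. Alternatives were stricter peaks, a shortened replicate 1, other distances, overlaps and assignments, and each replicate alone. Scripts ran in Python 3.11.15 with scipy 1.17.1, pandas 2.3.3 and numpy 2.4.6, and figures were drawn with matplotlib 3.10.9.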

Additional observations from a re-analysis of the deposited data

How the results depend on the processing

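Of 53 helicase genes, 6 had a peak in both lists; the count stayed within 1.5 times of this at other distances (7 within 2000 bp, with Ddx55 added), with the nearest gene only, without peaks near another gene, with peaks of −log10 q 5 or more, and after replicate 1 was shortened to 5040 peaks. It was 3 among peaks with a fold enrichment of 4 or more (5.66%, beside 11.6% of all protein-coding genes), and 6 to 31 with 1 replicate alone. At that fold enrichment 12 genes had a peak in replicate 1 and 42.9% of the helicase peaks of replicate 2 overlapped one of replicate 1. With the shortened list these were 12 and 44.4%. Both settings leave fewer peaks by construction, and the overlap over all peaks of replicate 2 at these settings is not given here. Among such peaks of 4 or more, the highest ones per gene in replicate 1 had a median of 7.47, since the limit removes the lower values. The share of summits near an end was 46.2% within 2000 bp and 22.2% to 26.8% with 1 replicate alone. Ranked by −log10 q, 2 of the 6 genes kept their place, Dhx33 and Dhx37, and Ddx39a came first. Of the 6 summits near an annotated start, 3 lay within 250 bp, a limit chosen after seeing the data, as were the settings for replicate 1 alone. No paired analysis was possible because only 1 group was analysed and no groups were compared. Without read counts, the effect of depth was not measured, and sequence motifs at summits and transcript regions were not run.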
